A study of Mus musculus with 2 samples.

Results

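The insulator protein CTCF occupied 10 sites in and around the Hoxd gene cluster in the livers of mouse embryos, out of 50909 sites in the whole genome. The members were chosen by position. A peak was taken when its summit lay between the outer ends of the 9 Hoxd genes or within 100 kb of either end, on chromosome 2 of build mm10 with GENCODE annotation vM21. The cluster from Hoxd13 to Hoxd1 spans 96.8 kb (chr2:74668310-74765142), and the window with its flanks spans 297 kb (chr2:74568310-74865142). The peaks come from the list that the authors thresholded by the irreproducible discovery rate (IDR) and named optimal.

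Hoxd genes encode homeodomain transcription factors that pattern the trunk, limbs and genitalia, and they are known to be switched on in their order along the chromosome. The cluster lies between gene deserts that hold its enhancers, and CTCF sites inside it are known to mark a border between the contacts made to either side. Loops held by CTCF and cohesin usually join sites whose motifs point towards each other, which is why the strand of each motif is given here.

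All data come from 1 group without a contrast. CTCF ChIP-seq was made on livers of B6NCrl mice at embryonic day 14.5, pulverized and pooled over dissections, male and female together. The labels name no mutation or treatment. The 2 libraries are numbered as biological replicates but carry the same biosample. Their spread was therefore taken as technical, such as that of library making and sequencing, which the labels do not settle. Variation between animals could not be measured. Read depth is unknown, and errors below are SD over these 2 libraries. A peak list cannot name the cell types of the liver that were bound, and no RNA was measured. The window is therefore described without a test.

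Of the 10 sites, 5 lay inside the cluster, 4 on the side of Hoxd13 and 1 on the side of Hoxd1. Of these, 3 were above the median signal of the whole list, in the Hoxd13-Hoxd12, Hoxd9-Hoxd8 and Hoxd8-Hoxd4 intervals, and together they held 65.9% of the summed signal of the window, a share that depends on the unstated scale of the signal. The DNA around these 3 summits is shown first because they are the 3 of highest signal. Each run is 101 bases of the + strand of the mm10 reference (RefSeq assembly sequence) centred on the summit, with the best match to the core CTCF motif in capitals.
Hoxd13-Hoxd12 site (chr2:74673107-74673207): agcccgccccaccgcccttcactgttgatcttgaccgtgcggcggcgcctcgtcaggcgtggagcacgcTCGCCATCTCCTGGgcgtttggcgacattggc
Hoxd9-Hoxd8 site (chr2:74702344-74702444): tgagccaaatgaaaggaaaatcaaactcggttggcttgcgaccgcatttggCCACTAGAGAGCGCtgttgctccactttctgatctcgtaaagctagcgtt
Hoxd3os1 exon site (chr2:74715886-74715986): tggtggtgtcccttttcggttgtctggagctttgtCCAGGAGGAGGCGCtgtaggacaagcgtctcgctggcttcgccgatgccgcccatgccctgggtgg

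The motif was searched as the core CTCF consensus, 14 letters long, on both strands within 50 bp of each summit, and a match was allowed at most 2 mismatches. Of the 10 sites, 6 had such a match, 3 of them with 1 mismatch and 3 with 2, against 70.8% of all optimal peaks and 3.0% of windows moved by 1 kb from the summits. The matches are printed as 30 bases on the strand of the motif, so that the capitals can be compared letter by letter. A pair of sites without a match, whose best stretch differed from the consensus at 3 positions, is given at the end.
Lnpk intron site (chr2:74571532-74571561, + strand): caaagaggCCAGAAGAGGGCACtggatctc
Evx2 3' UTR site (chr2:74655517-74655546, - strand): tcctgctgCCGCTAGGGGGCGCcccggggg
Hoxd13-Hoxd12 site (chr2:74673168-74673197, - strand): ccaaacgcCCAGGAGATGGCGAgcgtgctc
Hoxd11 exon site (chr2:74686472-74686501, + strand): ttctacagCCACACGAGGGCGCgctcatgt
Hoxd9-Hoxd8 site (chr2:74702387-74702416, + strand): gcatttggCCACTAGAGAGCGCtgttgctc
Hoxd3os1 exon site (chr2:74715913-74715942, + strand): agctttgtCCAGGAGGAGGCGCtgtaggac
Evx2-Hoxd13 site near Evx2, no match (chr2:74661991-74662020, - strand): cgaggaaaACAGATGGGGGCGCcaaatgac
Hoxd10 coding exon site, no match (chr2:74694219-74694248, - strand): cttactgaTCTCTAGGCGGCGCtcgcgggt

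Signal is the value the authors' peak caller gave each peak. Its scale is not stated, so values were set side by side only within 1 list. For relative signal, the summit of a replicate peak had to lie no more than 100 bp from the optimal summit, and its signal was divided by the median over the 50909 strongest peaks of that replicate. Those medians were 32.6 in replicate 1 and 34.2 in replicate 2. In the optimal list the signal ran from 5.17 to 747 with a median of 67.9.

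The strongest site of the window lay between the coding spans of Hoxd8, a gene of trunk patterning, and Hoxd4, a gene that patterns the hindbrain and neck vertebrae (chr2:74715826-74716058). Its summit fell in an exon of the antisense transcript Hoxd3os1, 60 bp from a start of that transcript, and in introns of long transcripts of Hoxd3 and Hoxd4. Its signal was 226, with rank 8480 in the list, so that 16.7% of all optimal peaks were stronger. The signal was 147 in replicate 1 and 81.0 in replicate 2, which gives relative signals of 4.52 and 2.37, or 3.45 ± 1.52 (SD, n = 2). The capitals of its run hold 2 mismatches, on the + strand.

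The site between Hoxd9 and Hoxd8 (chr2:74702306-74702500) was intergenic and lay 2221 bp from the nearest start of Hoxd8. Its signal was 208, with rank 9480. The signal was 87.2 in replicate 1 and 119 in replicate 2, with relative signals of 2.68 and 3.48, or 3.08 ± 0.572 (SD, n = 2). Its match had 1 mismatch, on the + strand, and was centred 7.5 bp from the summit.

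The third lay between Hoxd13, which is needed for digits and genitalia, and Hoxd12, which acts in the limb (chr2:74673060-74673265). It was 1856 bp upstream of the start of Hoxd12, with a signal of 168 and rank 12304. The signal was 107 in replicate 1 and 63.6 in replicate 2, with relative signals of 3.27 and 1.86, or 2.57 ± 0.994 (SD, n = 2). Its match lay on the - strand, with 2 mismatches, and was centred 25.5 bp from the summit.

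These 3 sites were the highest of the window in each replicate, and no other site reached the lowest of them in the same replicate. Their order was not the same in both. The Hoxd3os1 exon site was highest in replicate 1 and the Hoxd9-Hoxd8 site in replicate 2, so the 3 could not be ranked beyond the spread between the libraries.

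**Figure D1:**
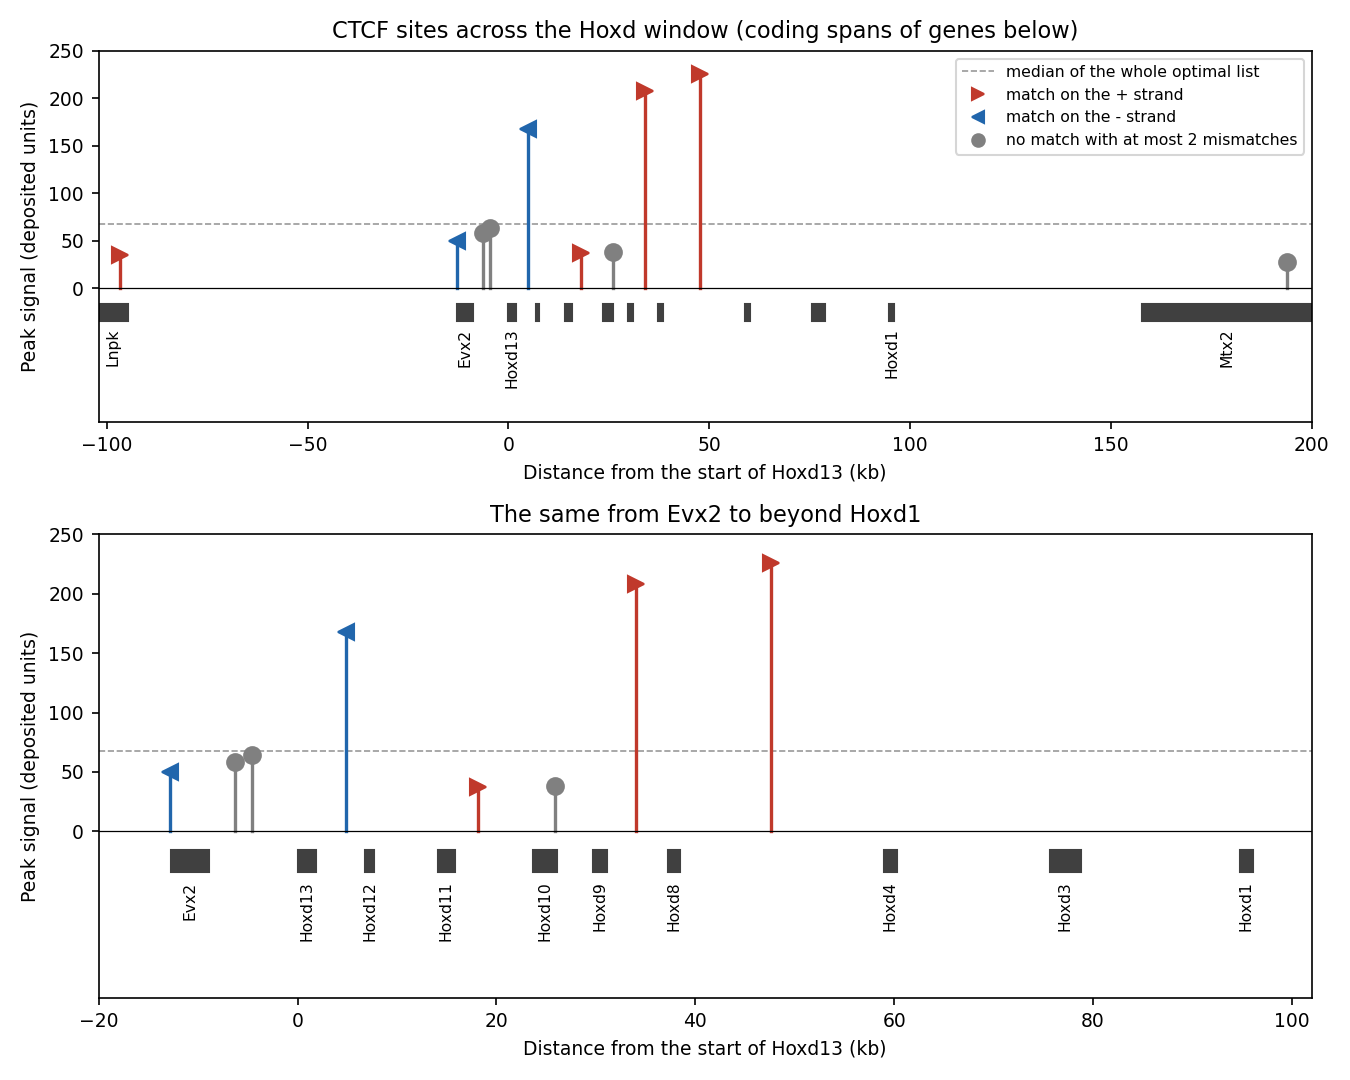
Signal of the 10 optimal peaks (vertical axis, deposited units) against distance from the start of Hoxd13 in kb, for the whole window above and from Evx2 to beyond Hoxd1 below. Arrowheads give the strand of a core motif match, circles mark sites with none, dark boxes are coding spans and the dashed line is the list median of 67.9. Only 3 sites stand above that line.

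The other 7 sites had signals between 28.3 and 64.0, all under the list median. A pair of these lay inside the cluster, in exons of the genes. The first (chr2:74686331-74686646) fell in an exon of a processed transcript of Hoxd11, a gene of forearm patterning, between the coding spans of Hoxd11 and Hoxd10. Its signal was 37.1, and the relative signal was 0.457 in replicate 1 and 0.551 in replicate 2, or 0.504 ± 0.0666 (SD, n = 2). Its match had 2 mismatches, on the + strand. The second (chr2:74694083-74694398) lay in the coding part of the last exon of Hoxd10, a gene known from motor neurons of the hindlimb. Its signal was 38.2, and the relative signal was 0.552 and 0.518, or 0.535 ± 0.0246 (SD, n = 2). It had no match.

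On the side of Hoxd13, 3 sites stood around Evx2, a homeobox gene related to even-skipped. The first was in the 3' UTR of Evx2 (chr2:74655370-74655685) with a signal of 49.7, and its relative signal was 1.16 in replicate 1 and 0.425 in replicate 2, or 0.793 ± 0.521 (SD, n = 2). Its match had 1 mismatch and lay on the - strand. The GC content over 200 bp around its summit was 75.6%, the highest of the 10 sites, which ran down to 40.3% at the Hoxd9-Hoxd8 site.

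The other two lay between Evx2 and Hoxd13, 1.75 kb apart. The one near Evx2 (chr2:74661843-74662158), 2444 bp upstream of the start of Evx2, had a signal of 58.4 and relative signals of 1.07 and 0.781, or 0.925 ± 0.204 (SD, n = 2). The one near Hoxd13 (chr2:74663597-74663912), 4555 bp from the start of Hoxd13, had a signal of 64.0 and relative signals of 1.23 and 0.591, or 0.910 ± 0.450 (SD, n = 2). Neither had a match. All 3 sites around Evx2 were above the median of the strongest peaks in replicate 1 and below it in replicate 2. The share of the whole list that did so is not given, so this is not shown to be particular to these sites. Relative signal was higher in replicate 1 at 63.6% of the optimal peaks that both replicates' lists held.

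The outermost sites were weak. On the far side of Evx2, a site in an intron of Lnpk, which encodes the endoplasmic reticulum protein lunapark, had a signal of 35.6 (chr2:74571391-74571706). Its relative signal was 0.503 in replicate 1 and 0.564 in replicate 2, or 0.533 ± 0.0432 (SD, n = 2). Beyond Hoxd1, a site in an intron of Mtx2, which encodes metaxin 2 of the mitochondrial outer membrane, had the lowest signal of the window, 28.3 (chr2:74862077-74862392). Its relative signal was 0.687 in replicate 1 and 0.136 in replicate 2, or 0.411 ± 0.390 (SD, n = 2).

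Replicate support separated this last site from the rest. Of the 10 sites, 9 had a summit within 100 bp among the strongest peaks of both replicates, against 76.7% of all optimal peaks, and 9 were also in the conservative IDR list, against 86.4%. The Mtx2 intron site was the exception in both counts, with rank 31841 in replicate 1 and 99657 in replicate 2. Relative signal was higher in replicate 1 at 7 of 10 sites, against 63.6% of the optimal peaks that both replicates' lists held. The ratio of replicate 1 to replicate 2 ran from 0.768 at the Hoxd9-Hoxd8 site to 2.73 at the Evx2 3' UTR site, and it was 5.06 at the Mtx2 intron site.

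**Figure D2:**
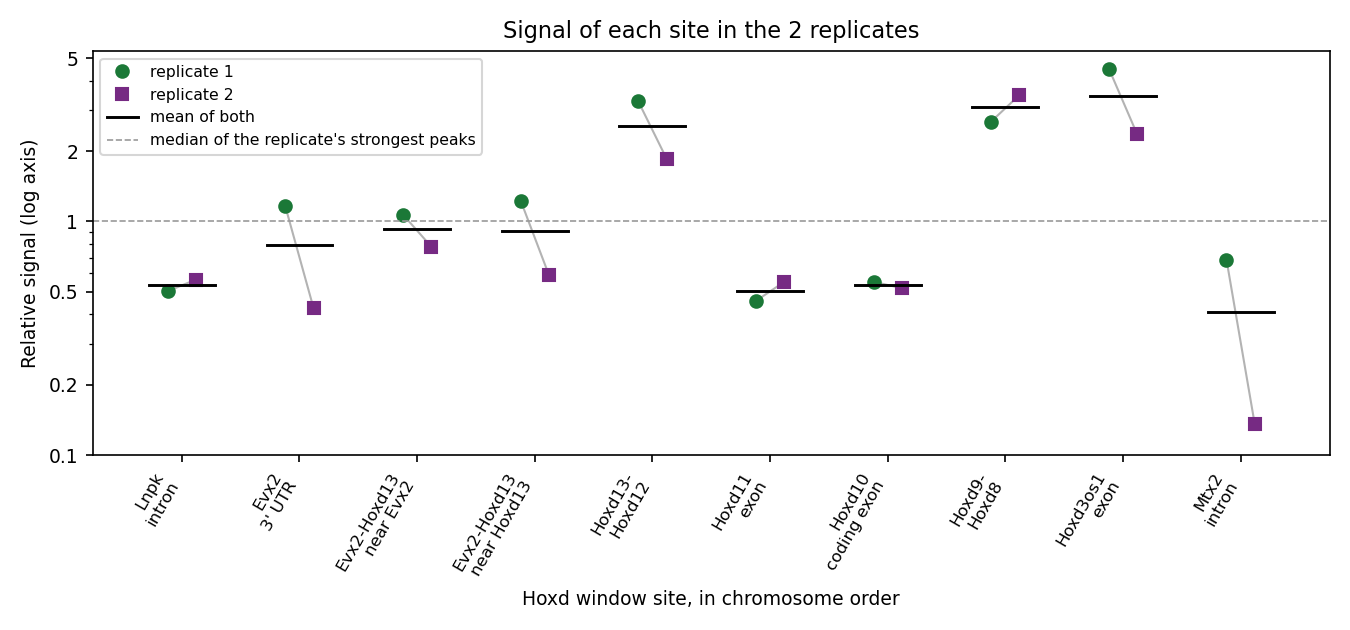
Relative signal of each site (log axis) in replicate 1 (green circles) and replicate 2 (purple squares), joined by a grey line, with the mean as a black bar. The sites are in chromosome order. The Hoxd13-Hoxd12, Hoxd9-Hoxd8 and Hoxd3os1 exon sites stand above the others in both replicates, and the widest gap between replicates is at the Mtx2 intron site.

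Within this window the 3 strong peaks were narrower than the rest. All 7 weaker sites were 316 bp wide, the most common width, shared by 59.3% of the list. The 3 strong sites were 195 bp (Hoxd9-Hoxd8), 206 bp (Hoxd13-Hoxd12) and 233 bp (Hoxd3os1 exon) wide. Width was not set against signal over the whole list. In the Hoxa window 5 of 9 peaks had the common width, although 7 of 9 were above the list median.

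The site between each pair of genes was counted over coding spans, since the spans of Hoxd3 and Hoxd4 overlap through long transcripts. The intervals Hoxd13 to Hoxd12, Hoxd11 to Hoxd10, Hoxd9 to Hoxd8 and Hoxd8 to Hoxd4 held 1 optimal peak each, and the coding span of Hoxd10 held 1. The intervals Hoxd12 to Hoxd11, Hoxd10 to Hoxd9, Hoxd4 to Hoxd3 and Hoxd3 to Hoxd1 held none. In the pooled list, which was called on both replicates without the IDR threshold, the interval Hoxd12 to Hoxd11 still held no peak. The full list of replicate 1 held 3 peaks there, the strongest at rank 112263, and that of replicate 2 held none. The strongest pooled peak had a signal of 6.69 at Hoxd10 to Hoxd9, 6.39 at Hoxd4 to Hoxd3 and 5.98 at Hoxd3 to Hoxd1, against 226 at Hoxd8 to Hoxd4.

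From the Evx2 3' UTR site to the Hoxd3os1 exon site, 8 sites fell within 60.4 kb, at distances of 1.75 to 13.5 kb from one to the next. To the left of them the nearest site was 84.0 kb away, and to the right it was 146 kb away. The median distance between neighbouring optimal summits was 14.8 kb genome-wide, with 11.8% of distances at least as long as the first gap and 6.18% at least as long as the second. The gap on the right holds the coding spans of Hoxd4, Hoxd3 (which acts in neck vertebrae) and Hoxd1 (known from sensory neurons in mice). The start of Hoxd1 was 47044 bp from the nearest site, the farthest of the 9 genes. For the other 8 genes the nearest site was 1856 bp (Hoxd12) to 4555 bp (Hoxd13) from an annotated start. At Hoxd4 (4007 bp) and Hoxd3 (4009 bp) that start belongs to long transcripts. Their coding spans begin farther away, at 74727279 and 74744012, with the nearest summit at 74715936.

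No Hoxd gene had an optimal summit within 1 kb of a start. That is 0 of 9 genes, against 35.2% of 21938 protein-coding genes. Counted by sites, 1 of 10 lay within 1 kb of any transcript start, against 22.0% of the list, and that start was of Hoxd3os1. The strongest pooled peak of the window that was not in the optimal list lay 127 bp from the Hoxd10 start (chr2:74691639-74691954). Its pooled signal was 27.0, against 28.3 for the Mtx2 intron site, the weakest of the 10 sites. The optimal list was thresholded by IDR and not by signal, and it holds peaks down to a signal of 5.17. In replicate 1 it ranked 31024 with a relative signal of 0.720, and in replicate 2 it ranked 180592 with 0.0994. Its best stretch differed from the core motif at 3 positions.

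The full lists held 42 peaks in the window in replicate 1, 45 in replicate 2 and 34 in the pooled list. Of the 34, 24 were not optimal, and 18 of those ranked beyond 100000. The pooled list held 300000 peaks, most of which rank that low, so this count does not set the window apart. The strongest peaks of each replicate alone gave nearly the same set as the optimal list. Replicate 1 held all 10 sites and the Hoxd10 start. Replicate 2 held 9 of them and a peak at chr2:74635463-74635738, intergenic on the side of Evx2 away from Hoxd13, with rank 48503 and a relative signal of 0.287. Replicate 1 had no peak there.

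**Figure D3:**
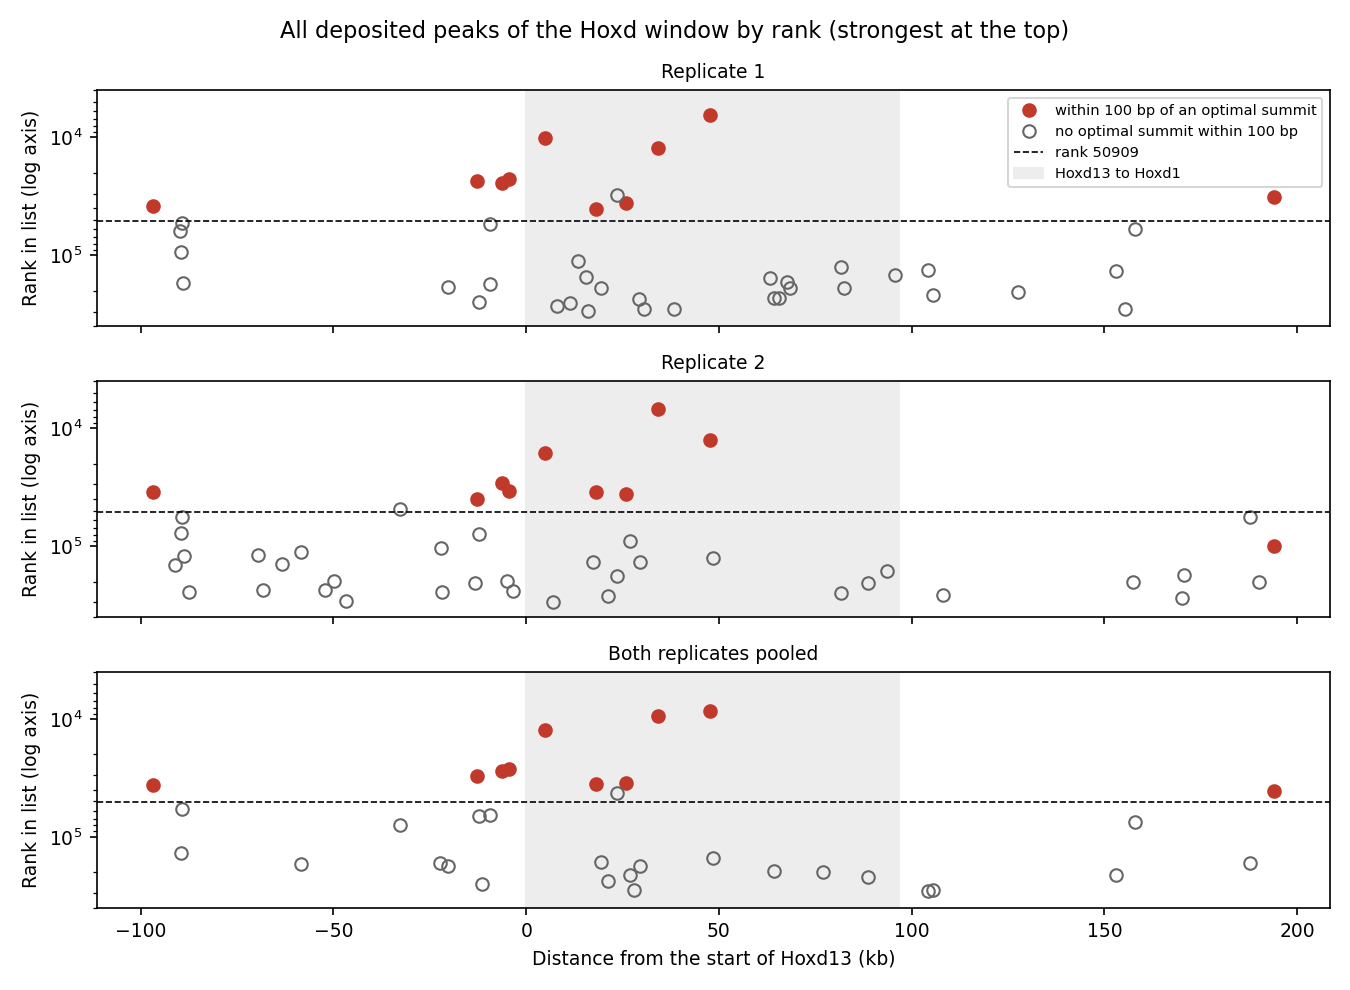
Rank of every deposited peak of the window (log axis, strongest at the top) against distance from the start of Hoxd13 in kb, for replicate 1, replicate 2 and the pooled list. Filled points lie within 100 bp of an optimal summit, open points do not, the dashed line is rank 50909 and the grey band runs from Hoxd13 to Hoxd1. The right part of the band holds open points only.

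The strands of the matches changed along the window. In chromosome order the 6 matches read + at the Lnpk intron, - at the Evx2 3' UTR, - at Hoxd13-Hoxd12, and then + at the Hoxd11 exon, Hoxd9-Hoxd8 and Hoxd3os1 exon sites. Among successive matches, the Lnpk intron and Evx2 3' UTR sites pointed towards each other across 84.0 kb, and the Hoxd13-Hoxd12 and Hoxd11 exon sites pointed away from each other across 13.3 kb. The remaining 3 pairs shared a strand. With at most 3 mismatches allowed, 2 pairs pointed towards each other, 2 pointed away and 3 shared a strand. The Mtx2 intron site has no match, so no partner on the Hoxd1 side can be read from these sites.

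A weight matrix learned from 18624 matches on other chromosomes gave a finer grading of the motif. Its score is a log2 odds over 19 positions, and the threshold of 12.87 was passed by 1% of moved windows. It was passed by 4 of the 10 sites, against 58.5% of the list. They were the Lnpk intron site with a score of 23.44, the Evx2 3' UTR site with 16.86, the Hoxd9-Hoxd8 site with 16.55 and the Hoxd3os1 exon site with 13.70. The Hoxd13-Hoxd12 site scored 9.87 and the Hoxd11 exon site 8.95, so the motif of both is less certain. The Evx2-Hoxd13 site near Evx2, which had no core match, scored higher than both at 11.41, also under the threshold. By this measure the divergent pair was the Evx2 3' UTR and Hoxd9-Hoxd8 sites, 46.9 kb apart.

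The highest motif score and the highest signal of the window were at different sites. The Lnpk intron site had the highest score, which only 3.14% of all optimal peaks exceeded, and yet its signal was 35.6. Of the 3357 optimal peaks within 1 unit of its score, 11.6% were weaker and the median signal was 124. The Hoxd13-Hoxd12 site went the other way, with a score under the threshold and a signal of 168. That signal exceeded that of 79.1% of the 2919 peaks within 1 unit of its score, where the median was 60.2. The Hoxd3os1 exon site was stronger than 84.0% and the Hoxd9-Hoxd8 site stronger than 76.2% of peaks of like score. The Evx2-Hoxd13 site near Hoxd13, with a score of only 1.00, was stronger than 72.6%. At the other sites this share was at most 49.9%. In the whole list the median signal was 90.0 with a match and 35.6 without.

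**Figure D4:**
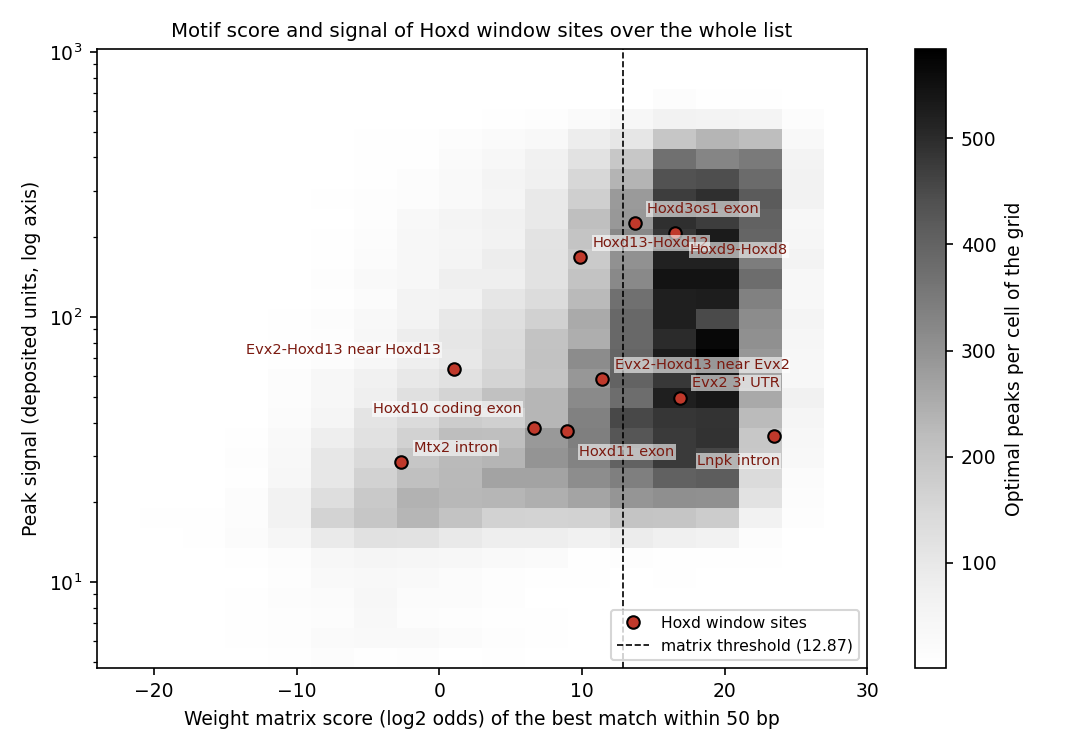
Signal (log axis, deposited units) against the best weight matrix score within 50 bp of the summit. Red points are the 10 Hoxd window sites, the grey grid counts all placed optimal peaks and the dashed line is the threshold of 12.87. The Lnpk intron site lies far right and low, and the Hoxd13-Hoxd12 site lies left of the threshold and high.

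The other Hox clusters were counted by the same rule. The Hoxd window held 10 sites, against 9 for Hoxa, 18 for Hoxb and 7 for Hoxc. Inside the cluster this was 5.16 sites per 100 kb for Hoxd, against 5.70 for Hoxa, 5.17 for Hoxb and 3.46 for Hoxc, and 1.87 over all chromosomes. The median signal of the window was 54.1 for Hoxd, against 117 for Hoxa, 137 for Hoxb and 70.8 for Hoxc. Inside the cluster the Hoxd median was 168 over 5 sites, against 133 over 6 Hoxa, 127 over 9 Hoxb and 160 over 4 Hoxc sites. The Hoxd value is the signal of the Hoxd13-Hoxd12 site, whose relative signals were 3.27 and 1.86 in the replicates. The clusters could therefore not be ranked by these medians. In the flanks it was 49.7 over 5 Hoxd sites, against 83.3 over 3 Hoxa, 148 over 9 Hoxb and 68.7 over 3 Hoxc sites. The share above the list median was 3 of 10 for Hoxd, against 7 of 9 for Hoxa, 13 of 18 for Hoxb and 5 of 7 for Hoxc. Core matches were at 6 of 10 Hoxd sites, against 7 of 9 at Hoxa, 18 of 18 at Hoxb and 6 of 7 at Hoxc. The weight matrix threshold was passed at 4 of 10 Hoxd sites, against 4 of 9 at Hoxa, 13 of 18 at Hoxb and 4 of 7 at Hoxc. No Hoxd gene had a promoter peak, against 3 of 11 Hoxa, 1 of 10 Hoxb and 2 of 9 Hoxc genes. These counts were set side by side without a test.

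**Figure D5:**
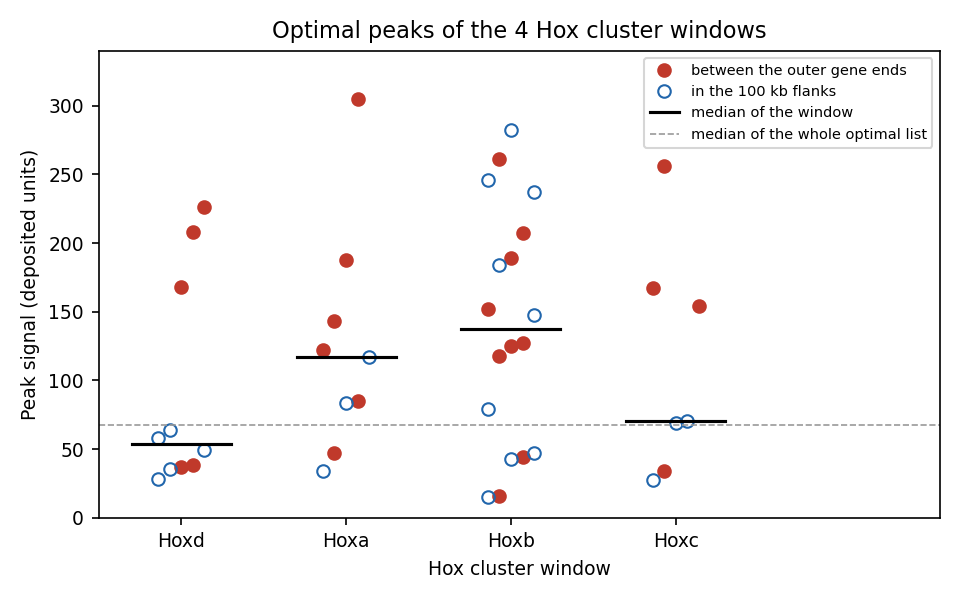
Signal of every optimal peak (vertical axis, deposited units) in the windows of the Hoxd, Hoxa, Hoxb and Hoxc clusters. Filled points lie between the outer gene ends, open points in the 100 kb flanks, black bars are window medians and the dashed line is the median of the whole list. Every open Hoxd point is under that line.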

How the data were processed

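Each list is a narrowPeak table on mm10, per the deposited text files. Lists were called with a control for each replicate and for both pooled, from which the optimal and conservative IDR lists were derived. A peak caller, not given in the sources used here, made them. The deposited signal of each peak is the authors' caller's own value, and the last deposited column is the summit as an offset from the start of the peak. Each full list held 300000 peaks, which carries no information on depth. The control and signal tracks were not analysed here. Motif and annotation counts leave out the 21 optimal peaks on unplaced scaffolds.

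Summits were placed on the RefSeq copy of GRCm38 (mm10) and on GENCODE vM21. The chromosome lengths of that copy hold every peak outside the unplaced scaffolds. A gene start is the start of any annotated transcript. Features were read as coding, UTR, exon, intron or intergenic. The weight matrix used 19 positions, a pseudocount of 1 and matches with at most 1 mismatch on chromosomes other than 2. The motif search was tested on simulated sequences with planted motifs. Python 3.11.15, numpy 2.4.6, pandas 2.3.3 and matplotlib 3.10.9 were used.

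No test was run, since there is 1 group. All window sites and all Hoxd genes are named. Another gene is named only where it lies in the window and a site is in it or nearest to it. The members, motif and lists were chosen with earlier results of these data known. Alternatives were the conservative list, sites above the list median, each replicate alone, other flanks, summit distances, numbers of strongest peaks and motif settings, and scaling by the mean.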

Additional observations from a re-analysis of the deposited data

How the results depend on the processing

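The count of 10 sites was 9 in the conservative list, 8 with flanks of 50 kb and 11 with flanks of 200 kb. With only sites above the list median it was 3 in the window and 3 inside the cluster, against 10 and 5. With each replicate alone the window held 10 to 11 sites, the cluster 5 to 6, and the ratio of the window's median signal to the list median was 0.578 to 1.07, against 0.796 in the optimal list. That ratio was 2.47 without flanks. Motif matches fell to 3 with at most 1 mismatch, with 2 of them on the + strand. They were 8 with at most 3 mismatches, and 5 when searched within 25 bp of the summit, where the Hoxd13-Hoxd12 match lay outside. The share of the whole list with a match within 25 bp is not given, so that drop is not shown to be particular to the window. Of all 50888 placed optimal peaks, 5286 had 0 mismatches within 50 bp, 14915 had 1, 15819 had 2 and 9255 had 3. Support in both replicates fell to 3 of 10 sites when only the 25454 strongest peaks of each were used. No share of the whole list is given for that setting, so the fall is not shown to be particular to the window. Dividing by the mean instead of the median lowered every relative signal, by more than 1 SD at 7 sites. Depth is unknown, so a site absent from the lists is not shown to be unbound. No paired analysis was possible because there is 1 group.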

Other observations

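With flanks of 200 kb, 1 more optimal peak came into the window, beyond Mtx2 as seen from the cluster and 99.4 kb outside the 100 kb flank, with a signal of 184. It is stronger than each of the 5 flank sites described above. The replicate 2 peak at chr2:74635463-74635738, with no peak in replicate 1, had a weight matrix score of 13.32, past the threshold, while the replicate 1 peak at the Hoxd10 start scored -1.28.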
